A study of Homo sapiens with 15 samples.

Results

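Small nucleolar RNA host genes are long non-coding RNA (lncRNA) genes whose introns carry small nucleolar RNAs (snoRNAs), the short guides that direct chemical modification of ribosomal and spliceosomal RNA. The host transcript is spliced, the snoRNAs are trimmed out of the introns, and the remaining spliced RNA of many hosts is degraded in the cytoplasm by nonsense-mediated decay. MALAT1 and NEAT1 belong to the same class of abundant lncRNAs but stay in the nucleus, MALAT1 in nuclear speckles, which store splicing factors, and NEAT1 as the scaffold of paraspeckles. The genes described here were chosen by name: every gene whose symbol is SNHG followed by a number, with GAS5, MALAT1, NEAT1, ZFAS1, EPB41L4A-AS1 and DANCR. These made 34 of the 60649 genes counted, 28 of them named SNHG, and GENCODE classes all 34 as lncRNA genes. By RefSeq, 27 of the 34 hold 147 snoRNAs between them, 83 of which lie in SNHG14, the long transcript of the Prader-Willi region. GAS5 holds 11 and SNHG1 holds 9, whereas MALAT1 and NEAT1 hold 0.

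The cells were K-562, an established human line of chronic myeloid leukaemia with erythroid character that carries the BCR-ABL fusion. They had been left untreated or given martinostat, an inhibitor of histone deacetylases (HDACs), at 0.15, 0.25, 0.5 or 1 µM for 24 h. Each of the 5 groups had 3 libraries of poly(A)-selected RNA, labelled as biological replicates, and no other agent is named for any group. Whether the 3 came from separate cultures is not stated further, so p-values measure the spread between these libraries. The untreated group has no label naming a solvent control.

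The 15 libraries held 23755510 to 32805574 counts. The erythroid markers HBG1, HBG2, GATA1, KLF1, TAL1 and TFRC were at 122 to 1228 CPM, counts scaled to a common library size, in untreated cells, while HBE1 was at 0.170 CPM. Among markers of other cell types, CD3E was at 0.540 CPM, COL1A1 at 4.36, ALB at 15.8 and EPCAM at 141. At 1 µM, GATA1 stood at 18.9 CPM, KLF1 at 3.58 and TAL1 at 25.1. HBG1 went from 126 to 95.3 CPM, HBG2 from 368 to 185, TFRC from 1228 to 485 and HBE1 from 0.170 to 0.491. Of the other markers, CD3E was at 0.969, ALB at 0.874, EPCAM at 20.5 and COL1A1 at 398 CPM. The part of these shifts in the results below was not tested. The third libraries at 0.25 and 0.5 µM stood apart from the other pairs of their groups in several of the genes described here, so results that rest on them are also given without them.

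Of the 34 genes, 33 passed the filter on low counts and were tested. SNHG28 was not, with 2 counts in 1 library at 1 µM and 0 in the other 14. The mean over all libraries was at least 10 CPM in 22 genes and below it in 11. In bulk RNA, a lower level can mean fewer cells of a kind or less RNA per cell, which cannot be told apart here. In 21 of the 34, over 10% of the exon bases lie under exons of another counted gene, from 62.4% in SNHG6, 54.3% in EPB41L4A-AS1 and 43.1% in ZFAS1 to 16.9% in DANCR. The strand setting of the counting is not stated, so reads of such genes and of their overlapping partners cannot be told apart with certainty.

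MALAT1 had the highest level of these RNAs, both in CPM and per length of annotated exon. In untreated cells it stood at 3685 ± 434 CPM (SD, n = 3), and SNHG29, next in order, at 313 ± 32.8. The exon length used here joins all annotated exons of a gene, which in SNHG1 fill the whole span of 3976 bases. Levels of spliced host RNAs per kb can therefore be understated, and the gap to MALAT1 per kb overstated. Per kb of exon, MALAT1 stood at 353 ± 41.6 CPM in untreated cells (SD, n = 3). SNHG1 followed at 39.8 ± 7.10, SNHG3 at 35.5 ± 3.53, SNHG29 at 34.96 ± 3.67 and GAS5 at 31.5 ± 4.94 CPM per kb, 4 neighbours in the order that lie within their spread of one another. NEAT1 stood at 10.5 ± 1.08 CPM per kb, and SNHG14, spread over 122609 exon bases, was at 0.00687 ± 0.000628. Exon lengths come from a later annotation than the one counted, in which MALAT1 is longer than the 8829 bases behind the deposited FPKM. SNHG18 had 0 counts in all 3 untreated libraries.

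The stretches around the RefSeq start sites of 8 of these genes are shown because the genes called higher or lower at 1 µM are compared below in a feature known from ribosomal protein genes, a run of pyrimidines at the start site. Each line gives 30 bases before the start and 30 from it onward, on GRCh38.p14, and capitals mark a run of a C followed by at least 5 further C or T that begins within 10 bases of the start. The first 4 genes were called higher at 1 µM and the last 4 lower. The 8 are only a part of the called genes with a RefSeq start and do not give the split by run. Not shown are the second MALAT1 start and SNHG22, called higher, both without a run, and SNHG8, called lower, with a run of 6 bases. SNHG14 and SNHG31, called higher with a run, and SNHG10 and SNHG30, called lower without one, are not shown either.
MALAT1 (chr11:65497708-65497767, plus strand): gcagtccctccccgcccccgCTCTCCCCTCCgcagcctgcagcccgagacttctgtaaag
SNHG12 (chr1:28581844-28581903, minus strand): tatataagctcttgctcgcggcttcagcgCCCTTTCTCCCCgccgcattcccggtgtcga
SNHG19 (chr16:2155329-2155388, minus strand): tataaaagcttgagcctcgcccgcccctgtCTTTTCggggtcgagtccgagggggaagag
SNHG18 (chr5:9546170-9546229, plus strand): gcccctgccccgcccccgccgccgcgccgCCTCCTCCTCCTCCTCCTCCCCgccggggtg
DANCR (chr4:52712364-52712423, plus strand): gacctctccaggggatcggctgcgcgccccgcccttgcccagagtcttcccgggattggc
SNHG17 (chr20:38435299-38435358, minus strand): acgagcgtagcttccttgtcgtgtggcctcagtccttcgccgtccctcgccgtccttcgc
SNHG4 (chr5:139274071-139274130, plus strand): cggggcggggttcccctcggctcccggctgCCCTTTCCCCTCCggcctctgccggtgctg
SNHG20 (chr17:77088613-77088672, plus strand): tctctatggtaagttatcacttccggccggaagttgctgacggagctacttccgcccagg

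RefSeq promoters were matched for 29 of the 34 genes, with 2 for MALAT1, which made 30. A run at the start was found in 11 of the 30 (36.7%), against 19.2% of all 35116 promoters and 75.6% of the 78 promoters of cytosolic ribosomal proteins. The 11 genes with a run had 6 called higher and 2 called lower at 1 µM, with a median log2 fold change of 1.00. The 17 tested genes with a promoter but no run had 1 called higher and 5 called lower, with a median of -0.25. Of all 3533 tested genes with a run 39.7% were called higher and 33.7% lower, with a median of 0.14, and of the 10490 without one 39.4% and 33.2%, with a median of 0.18. The counts are a description with no test. The RefSeq and GENCODE starts can differ, by 154975 bases in SNHG14, 37251 in SNHG27, 1927 in SNHG20 and 1259 in SNHG12. SNHG14 is 1 of the 6 genes with a run that were called higher, and its value is the median of the 11. SNHG18 and SNHG31, also among the 6, passed the filter only through treated libraries, as did SNHG22, the 1 called higher without a run. Their calls are no support for a split by run. The second MALAT1 promoter has no run. Searched on both strands over the 300 promoter bases, GGGCGG was found in 70.0% of the 30 promoters and 45.0% of all, CCAAT in 26.7% and 34.6%, TATAAA in 16.7% and 11.5%, and CACGTG in 6.67% and 7.26%.

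Each dose was compared with untreated cells to ask which of these RNAs martinostat changes and from which concentration. The genes split in both directions: the nuclear RNAs MALAT1 and NEAT1 and the hosts SNHG12 and SNHG19 rose at the higher doses, whereas DANCR, SNHG15, SNHG17, SNHG4 and SNHG20 fell to between 7.32-fold and 2.99-fold below untreated at 1 µM. GAS5, the host with the most snoRNAs after SNHG14, was called lower at 0.15 µM and, over all libraries, not called at the other doses. The 4 comparisons share the untreated libraries. Calls are from the quasi-likelihood test of edgeR, at a Benjamini-Hochberg adjusted p under 0.05, as are all adjusted p below. Here 2 of 33 were called higher and 9 lower at 0.15 µM, where 31.9% of all tested genes were called higher and 19.4% lower. At 0.25 µM 6 were higher and 13 lower (all genes 37.4% and 24.8%). At 0.5 µM 8 were higher and 7 lower (39.4% and 27.6%), and at 1 µM 9 were higher and 8 lower (38.8% and 27.5%). Without the third libraries at 0.25 and 0.5 µM the calls were 4 higher and 13 lower, 6 and 14, 9 and 8, and 9 and 13. The shares of all genes called without those libraries are not given here, so these counts cannot be read against them. Without untreated library 1, or without untreated library 2, 8 rather than 13 were lower at 0.25 µM. In all, 0 were called in opposite directions at 0.15 and 1 µM (all genes 1.97%), 2 were higher at all 4 doses (all genes 24.6%) and 4 were lower at all 4 (all genes 15.1%), and 20 of 33 differed among the 5 groups (all genes 73.6%). The 2 higher at all 4 doses were SNHG18 and SNHG22, also the 2 called higher at 0.15 µM. With SNHG31 they are among the 9 higher at 1 µM. These genes passed the filter only through treated libraries, so their calls are no support.

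**Figure D1:**
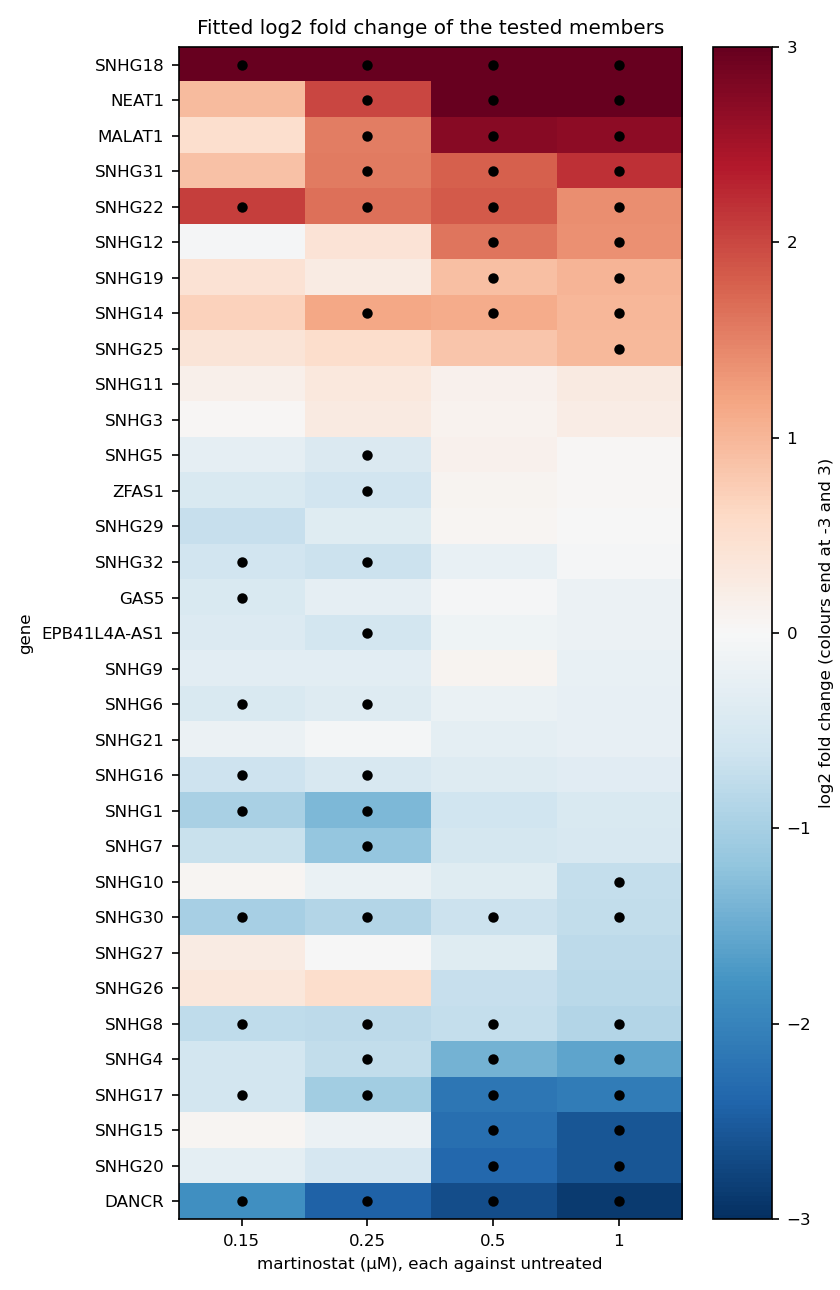
Fitted log2 fold change (colour, ending at -3 and 3) of the 33 tested lncRNA genes at 4 martinostat doses in µM against untreated cells, ordered by the value at 1 µM, with a black dot where the adjusted p was under 0.05. The 9 genes called higher at 1 µM stand at the top, and 8 others have a dot on the lower side at that dose. At all 4 doses 4 genes, DANCR, SNHG17, SNHG8 and SNHG30, have a dot on the lower side.

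The median log2 fold change of the 33 was -0.27, -0.26, -0.12 and -0.18 at the 4 doses in rising order, against 0.28, 0.32, 0.34 and 0.32 over all tested genes and -0.28, -0.40, -0.37 and -0.39 over genes of at least 10 CPM. Among the 22 of at least 10 CPM, 0 were called higher and 9 lower at 0.15 µM (genes of that level 21.1% and 40.2%, lncRNA genes of that level 37.5% and 14.1%). At 0.25 µM 2 of the 22 were higher and 13 lower (22% and 48.7%, lncRNA genes 44.5% and 19.4%), and at 0.5 µM 4 and 6 (26.6% and 48.7%, lncRNA genes 42.8% and 29.7%). At 1 µM 4 of the 22 were higher and 6 lower (26.5% and 48.4%, lncRNA genes of that level 40.3% and 31.4%). The split depended on scaling. With library totals in place of TMM factors, the medians turned to 0.08, 0.28, 0.24 and 0.17 and the calls to 6 higher against 2 lower, 11 against 1, 11 against 5 and 11 against 5. The same scaling moved the median of all tested genes to 0.64, 0.85, 0.72 and 0.67. With TMM factors taken from genes of at least 10 CPM, the medians were -0.01, 0.18, 0.29 and 0.21.

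MALAT1 (ENSG00000251562.8, chr11:65497640-65508073 on hg38, plus strand) is the nuclear speckle RNA. Its levels were 3720, 3235 and 4101 CPM in untreated cells and 5608, 5204 and 4858 at 0.15 µM. At 0.25 µM they were 13159, 14390 and 4340, at 0.5 µM 29989, 33494 and 10172, and at 1 µM 25131, 22071 and 24270 CPM. Every treated library lay above every untreated one, and the third libraries at 0.25 and 0.5 µM lay far below the other pair of their group. Its log2 fold change came to 0.50 with an SE of 0.39 (adjusted p = 0.304, not called) at 0.15 µM, 1.53 ± 0.40 (adjusted p = 0.00339) at 0.25 µM, 2.74 ± 0.42 (adjusted p = 2.23e-05) at 0.5 µM and 2.69 ± 0.42 (adjusted p = 2.61e-05) at 1 µM. Without those 2 libraries it was 0.51, 1.93 and 3.14 at the first 3 doses, with the first now called higher (adjusted p = 4.27e-04). At 0.15 µM, where no library was left out, the change was nearly the same and its SE fell from 0.39 to 0.11. MALAT1 took 0.295% ± 0.0350 (SD, n = 3) of all counts in untreated cells and 2.43% ± 0.166 at 1 µM.

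NEAT1 (ENSG00000245532.9, chr11:65422774-65445540, plus strand), the paraspeckle scaffold, starts 74.9 kb before MALAT1 on the same strand. Its levels were 243, 211 and 260 CPM in untreated cells, 396, 405 and 569 at 0.15 µM and 927, 619 and 1332 at 0.25 µM. At 0.5 µM they were 1479, 1301 and 4807 and at 1 µM 1848, 2049 and 1955 CPM. Treated and untreated libraries did not overlap at any dose, and here the third libraries at 0.25 and 0.5 µM were the highest of their groups, the reverse of MALAT1. In log2 fold change this came to 0.94 ± 0.40 (adjusted p = 0.0650, not called), 2.01 ± 0.42 (adjusted p = 6.78e-04), 3.41 ± 0.44 (adjusted p = 6.92e-06) and 3.03 ± 0.43 (adjusted p = 1.93e-05) at the 4 doses. Without the third libraries at 0.25 and 0.5 µM it was 0.95 (adjusted p = 1.46e-05, called), 1.72 and 2.59 at the first 3 doses. Neither gene changed direction under any scaling tried.

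**Figure D2:**
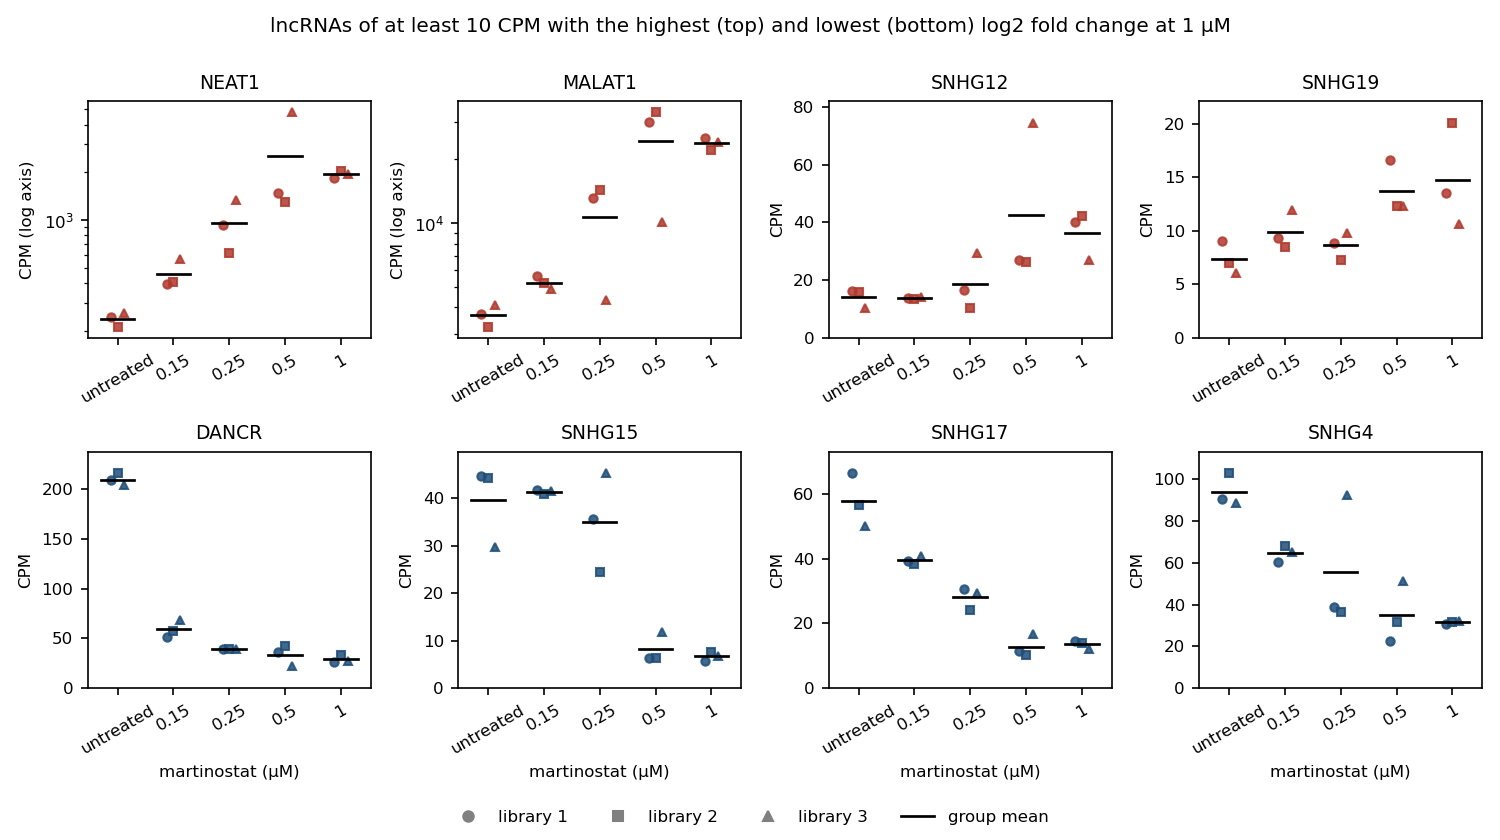
Level in CPM (vertical axes, logarithmic for NEAT1 and MALAT1, from 0 for the rest) of 8 lncRNAs in untreated cells and at 4 martinostat doses in µM, with 1 marker shape per library number (3 libraries per group) and a bar at the group mean. DANCR lies below 70 CPM in every treated library against 204 to 216 CPM untreated, and the third library (triangle) stands apart at 0.25 and 0.5 µM in MALAT1, NEAT1 and SNHG12.

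Of the snoRNA hosts of at least 10 CPM, SNHG12 (ENSG00000197989.14, chr1:28578538-28583132, minus strand), which holds SNORD99 and 3 box H/ACA snoRNAs, and SNHG19, which holds SNORD60, were called higher at 0.5 and 1 µM and not called at the lower doses. SNHG12 was at 16.1, 15.9 and 10.1 CPM untreated, 13.7, 13.3 and 13.9 at 0.15 µM and 16.4, 10.2 and 29.2 at 0.25 µM. At 0.5 µM it was at 26.8, 26.1 and 74.5 and at 1 µM at 40.1, 42.2 and 26.8 CPM. The libraries at 0.5 and 1 µM lay above all untreated ones; the third at 0.5 µM lay far above its pair. SNHG12 had a log2 fold change of 1.60 ± 0.43 (adjusted p = 0.00466) at 0.5 µM and 1.37 ± 0.43 (adjusted p = 0.0115) at 1 µM, and 0.95 at 0.5 µM without the third libraries (adjusted p = 7.45e-04). SNORD99, counted as a gene of its own inside SNHG12, went from 0.449 to 1.69 CPM at 1 µM (log2 fold change 1.91 ± 0.46, adjusted p = 0.00123).

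SNHG19 (ENSG00000260260.1, chr16:2154792-2155405, minus strand) was at 9.04, 6.95 and 6.03 CPM untreated, 9.28, 8.47 and 12.0 at 0.15 µM, 8.88, 7.30 and 9.82 at 0.25 µM, 16.7, 12.3 and 12.3 at 0.5 µM and 13.6, 20.1 and 10.6 at 1 µM, with overlap with the untreated range at the lower doses and none at the upper ones. Its log2 fold change was 0.90 ± 0.24 (adjusted p = 0.00263) at 0.5 µM and 1.01 ± 0.24 (adjusted p = 0.00108) at 1 µM. The start of TRAF7, which encodes a ubiquitin ligase, lies 293 bases away on the opposite strand. TRAF7 was called lower at 0.25 µM (log2 fold change -0.58) and not at the other doses (-0.08 at 1 µM).

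Some SNHG genes with little or no expression in untreated cells rose as well. Others did not: from untreated to 1 µM SNHG21 went from 2.18 to 1.83 CPM, SNHG26 from 4.53 to 2.59 and SNHG27 from 2.77 to 1.61. SNHG18 (ENSG00000250786.2, chr5:9546170-9550725, plus strand), the host of SNORD123, had 0 counts in the untreated libraries, 43 in the 3 libraries at 0.15 µM together, 124 at 0.25 µM, 240 at 0.5 µM and 245 at 1 µM. Against a floor of 3 counts over the untreated group its level at 1 µM was at least 72.2-fold higher. SNHG18, SNHG22 and SNHG31, with at most 10 counts in any untreated library, passed the filter only through treated libraries, so their calls are no support and are given as levels. The gene that starts 95 bases away on the opposite strand, SEMA5A, a transmembrane semaphorin, also had 0 counts untreated, then 8, 25, 118 and 170 counts in rising order of dose. SNHG22 went from 0.212 ± 0.0842 CPM (SD, n = 3) untreated to 0.907 ± 0.360 at 0.15 µM and 0.560 ± 0.188 at 1 µM. Its opposite-strand partner ACAA2, a mitochondrial fatty acid oxidation enzyme 12 bases away, was called higher at 0.25 µM alone (log2 fold change 0.42). SNHG31 went from 0.249 to 1.16 CPM at 1 µM, SNHG14 from 0.842 to 1.69 CPM (log2 fold change 1.00 ± 0.37, adjusted p = 0.0238) and SNHG25 from 1.00 to 1.97 CPM (0.97 ± 0.37, adjusted p = 0.0269). In the test among the 5 groups neither SNHG14 (adjusted p = 0.0543) nor SNHG25 (adjusted p = 0.146) was called. The partner of SNHG31, BARD1, the binding partner of BRCA1, moved the other way and was called lower at all 4 doses (log2 fold change -1.50 at 1 µM).

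DANCR (ENSG00000226950.8, chr4:52712325-52723623, plus strand), the host of SNORA26, was named for its role in holding cells undifferentiated, and it had the lowest log2 fold change of the 33 at 1 µM. It was at 209, 216 and 204 CPM untreated, 51.1, 57.6 and 68.1 at 0.15 µM, 39.3, 39.0 and 39.7 at 0.25 µM, 35.8, 42.0 and 22.6 at 0.5 µM and 26.3, 32.7 and 26.9 at 1 µM. No treated library came near the untreated range, and most of the fall was present at the lowest dose. On the log2 scale DANCR changed by -1.83 ± 0.18 (adjusted p = 1.37e-07) at 0.15 µM and -2.87 ± 0.19 (adjusted p = 1.78e-10) at 1 µM, a 3.56-fold and a 7.32-fold lower level. DANCR was also lower at 1 than at 0.15 µM (log2 fold change -1.04 ± 0.18, adjusted p = 1.12e-04).

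SNHG15 (ENSG00000232956.9, chr7:44983019-44986961, minus strand), the host of SNORA9, was called lower at the upper doses and not at the lower ones. It was at 44.7, 44.3 and 29.8 CPM untreated, 41.7, 40.9 and 41.5 at 0.15 µM and 35.6, 24.4 and 45.3 at 0.25 µM. At 0.5 µM it was at 6.36, 6.28 and 11.8 and at 1 µM at 5.71, 7.67 and 6.69 CPM. The lower 2 doses overlapped the untreated range and the upper 2 lay wholly below it. Log2 fold changes were 0.06 ± 0.24 (adjusted p = 0.850) at 0.15 µM, -0.17 ± 0.24 (adjusted p = 0.550) at 0.25 µM, -2.27 ± 0.26 (adjusted p = 3.86e-07) at 0.5 µM and -2.56 ± 0.26 (adjusted p = 9.64e-08) at 1 µM, and -2.10 ± 0.26 (adjusted p = 6.06e-06) from 0.25 to 0.5 µM. SNHG20 was at 12.5 ± 1.64, 10.3 ± 0.546, 8.76 ± 4.84, 2.41 ± 1.09 and 2.11 ± 0.271 CPM (SD, n = 3) from untreated to 1 µM, with a log2 fold change of -2.57 ± 0.35 at 1 µM (adjusted p = 3.36e-06). At 0.25 µM it was not called (-0.51) but was called lower without the third libraries (-1.04 ± 0.22, adjusted p = 2.96e-04).

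SNHG17 (ENSG00000196756.13, chr20:38419638-38435409, minus strand), the host of SNORA71A to SNORA71D, was called lower than untreated at all 4 doses. It was at 66.5, 56.7 and 50.01 CPM untreated, 39.4, 38.4 and 40.7 at 0.15 µM, 30.5, 24.0 and 29.5 at 0.25 µM, 11.5, 10.2 and 16.7 at 0.5 µM and 14.6, 13.9 and 12.0 at 1 µM. No treated library reached the untreated range. The log2 fold change was -0.55 ± 0.17 (adjusted p = 0.0124), -1.04 ± 0.17 (adjusted p = 4.03e-05), -2.17 ± 0.18 (adjusted p = 4.29e-09) and -2.10 ± 0.18 (adjusted p = 6.47e-09) at the 4 doses. SNORA71B, counted inside it, fell from 1.32 to 0.627 CPM at 1 µM (log2 fold change -1.07 ± 0.40, adjusted p = 0.0240). SNHG4 (ENSG00000281398.4, chr5:139274102-139284899, plus strand), the host of SNORA74A, was at 90.5, 103 and 88.5 CPM untreated, 60.3, 68.0 and 65.1 at 0.15 µM, 38.6, 36.5 and 92.3 at 0.25 µM, 22.7, 31.5 and 51.3 at 0.5 µM and 30.7, 31.7 and 31.9 at 1 µM, and the third library at 0.25 µM was the one treated library within the untreated range. Its log2 fold change was -0.75 ± 0.31 (adjusted p = 0.0482) at 0.25 µM, a call lost in 20 of 27 alternatives, or -1.30 ± 0.14 (adjusted p = 1.78e-08) without the third libraries, and -1.58 ± 0.32 (adjusted p = 4.53e-04) at 1 µM. At 0.15 µM SNHG4 was called lower without the third libraries (-0.54 ± 0.12, adjusted p = 4.45e-04) and not with them. SNORA74A fell from 0.475 to 0.116 CPM at 1 µM (log2 fold change -1.99 ± 0.69, adjusted p = 0.0169), with only 109 counts over all 15 libraries. SNORA74D, also inside SNHG4, was not called at 1 µM (-0.98 ± 0.68, adjusted p = 0.215).

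The hosts GAS5, ZFAS1, EPB41L4A-AS1 and SNHG1 were each called lower at 0.15 or 0.25 µM. Over all libraries they were not called at 0.5 or 1 µM, while SNHG1 was called at both upper doses without the third libraries. None of them has a run at its RefSeq start. SNHG32 and SNHG16 do have one, of 6 bases each, and were likewise called lower at the lower doses and not at the upper ones over all libraries. GAS5 (ENSG00000234741.8, chr1:173858559-173868882, minus strand) was at 157, 179 and 131 CPM untreated, 117, 115 and 109 at 0.15 µM, 118, 116 and 157 at 0.25 µM, 166, 135 and 158 at 0.5 µM and 133, 152 and 127 at 1 µM. The 0.15 µM libraries alone lay wholly below the untreated range. The log2 fold change was -0.45 ± 0.15 (adjusted p = 0.0192) at 0.15 µM and -0.18 ± 0.15 (adjusted p = 0.314) at 1 µM. With library totals these were -0.09, not called, and 0.17. Without the third libraries GAS5 was also called lower at 0.25 µM (-0.39 ± 0.14, adjusted p = 0.0212). The difference between 1 and 0.15 µM was not called (0.27 ± 0.15, adjusted p = 0.159).

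ZFAS1 (ENSG00000177410.13, chr20:49278178-49299600, plus strand), the host of SNORD12, SNORD12B and SNORD12C, was at 25.4, 28.8 and 23.2 CPM untreated, 19.7, 17.6 and 18.7 at 0.15 µM, 19.3, 20.3 and 12.8 at 0.25 µM, 30.7, 31.3 and 19.9 at 0.5 µM and 30.1, 23.2 and 26.0 at 1 µM. Both lower doses lay below the untreated range and both upper ones overlapped it. The log2 fold change was -0.47 ± 0.19 (adjusted p = 0.0515) at 0.15 µM, -0.56 ± 0.19 (adjusted p = 0.0170) at 0.25 µM and 0.04 ± 0.19 (adjusted p = 0.881) at 1 µM. ZFAS1 was called lower at 0.15 µM too without the third libraries (-0.46 ± 0.13, adjusted p = 0.00410). It was called higher at 1 than at 0.15 µM (log2 fold change 0.50 ± 0.19, adjusted p = 0.0416). ZNFX1, the helicase gene that starts 248 bases away, was called lower at all 4 doses (log2 fold change -0.80 at 1 µM).

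EPB41L4A-AS1 (ENSG00000224032.7, chr5:112160526-112164818, plus strand), the host of SNORA13, was at 20.2, 19 and 15.0 CPM untreated, 15.9, 12.0 and 13.1 at 0.15 µM, 11.2, 11.5 and 14.5 at 0.25 µM, 16.6, 18.2 and 15.0 at 0.5 µM and 18.1, 14.7 and 14.9 at 1 µM. The 0.25 µM libraries lay below the untreated range and the other doses overlapped it. The log2 fold change was -0.54 ± 0.17 (adjusted p = 0.0118) at 0.25 µM and -0.18 ± 0.17 (adjusted p = 0.367) at 1 µM, a sign that turned with library totals (0.17). At 0.15 µM it was called lower without the third libraries (-0.40 ± 0.15, adjusted p = 0.0293). SNHG1 was at 158 ± 28.2, 80.6 ± 2.65, 62.1 ± 28.8, 104 ± 45.5 and 116 ± 7.43 CPM (SD, n = 3) from untreated to 1 µM and was called lower at 0.15 µM (log2 fold change -0.97 ± 0.29, adjusted p = 0.0113) and 0.25 µM (-1.35 ± 0.29, adjusted p = 9.37e-04). Library 3 at 0.25 and at 0.5 µM lay above the other pair of its group, and without them SNHG1 was also called lower at 0.5 µM (-0.99 ± 0.15, adjusted p = 1.98e-06) and 1 µM (-0.40 ± 0.13, adjusted p = 0.00666). Its partner SLC3A2, the heavy chain of amino acid transporters with a start 51 bases away, was called lower at all 4 doses (log2 fold change -1.01 at 1 µM).

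Other hosts were called lower by smaller amounts. SNHG8 and SNHG30 were lower at all 4 doses, with log2 fold changes of -0.88 ± 0.25 (adjusted p = 0.00574) and -0.74 ± 0.24 (adjusted p = 0.0119) at 1 µM, and neither was called at 0.5 µM without the third libraries. SNHG32, SNHG6 and SNHG16 were called lower at 0.15 and 0.25 µM, SNHG5 and SNHG7 at 0.25 µM alone and SNHG10 at 1 µM alone. SNHG7 was, without the third libraries, called lower at all 4 doses, SNHG10 also at 0.25 µM (-0.58, adjusted p = 0.0421), SNHG16 at 1 µM (-0.29, adjusted p = 0.0471) and no longer at 0.25 µM, and SNHG5 lost its call at 0.25 µM (-0.25, adjusted p = 0.190). The value at 0.25 µM turned above 0 in some of the scalings for SNHG5, SNHG6 and SNHG16. The 7 genes not called at any dose were SNHG3, SNHG9, SNHG11, SNHG21, SNHG26, SNHG27 and SNHG29. Of these, without the third libraries, SNHG26 was called lower at 0.5 µM (-1.19, adjusted p = 5.57e-04) and 1 µM (-0.76, adjusted p = 0.00514) and SNHG27 at 1 µM (-0.74, adjusted p = 0.0234). Among them SNHG29, the host with the most CPM in untreated cells, had a log2 fold change of -0.01 ± 0.36 (adjusted p = 0.988) at 1 µM.

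Successive doses were compared to ask where along the range the levels changed. From 0.15 to 0.25 µM 2 of 33 were called (all genes 12.3%), DANCR lower and SNHG18 higher. From 0.25 to 0.5 µM 12 were called (all genes 30.4%), 8 higher, among them MALAT1, NEAT1, SNHG12 and ZFAS1, and 4 lower, SNHG15, SNHG17, SNHG20 and SNHG26. From 0.5 to 1 µM edgeR called 0 (all genes 0%), DESeq2 also called 0, and over all libraries 0 of the 33 had an unadjusted p under 0.05. Without the third libraries this step gave 0.58 ± 0.14 for SNHG1 (adjusted p = 0.173) and 0.49 ± 0.17 for NEAT1 (adjusted p = 0.492). It gave -0.41 ± 0.12 for MALAT1 (adjusted p = 0.333) and -0.43 ± 0.14 for DANCR (adjusted p = 0.430). Unadjusted p without those libraries are not given here, so a lack of change at this step cannot be read from them. Between 0.15 and 1 µM 15 were called (all genes 44.5%), 7 higher and 8 lower. Without the third libraries at 0.25 and 0.5 µM the counts were 10, 16, 0 and 20, for which the shares of all genes are not given here. The 12 of the step from 0.25 to 0.5 µM, also 12 with a replicate block, became 7 without library 1 at 0.5 µM and 6 without library 2, the 15 between 0.15 and 1 µM became 9 without library 2 at 0.15 µM, and the 2 of the first step ranged from 0 (without library 2 at 0.15 µM or library 1 at 0.25 µM) to 5 (without library 3 at 0.5 µM).

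**Figure D3:**
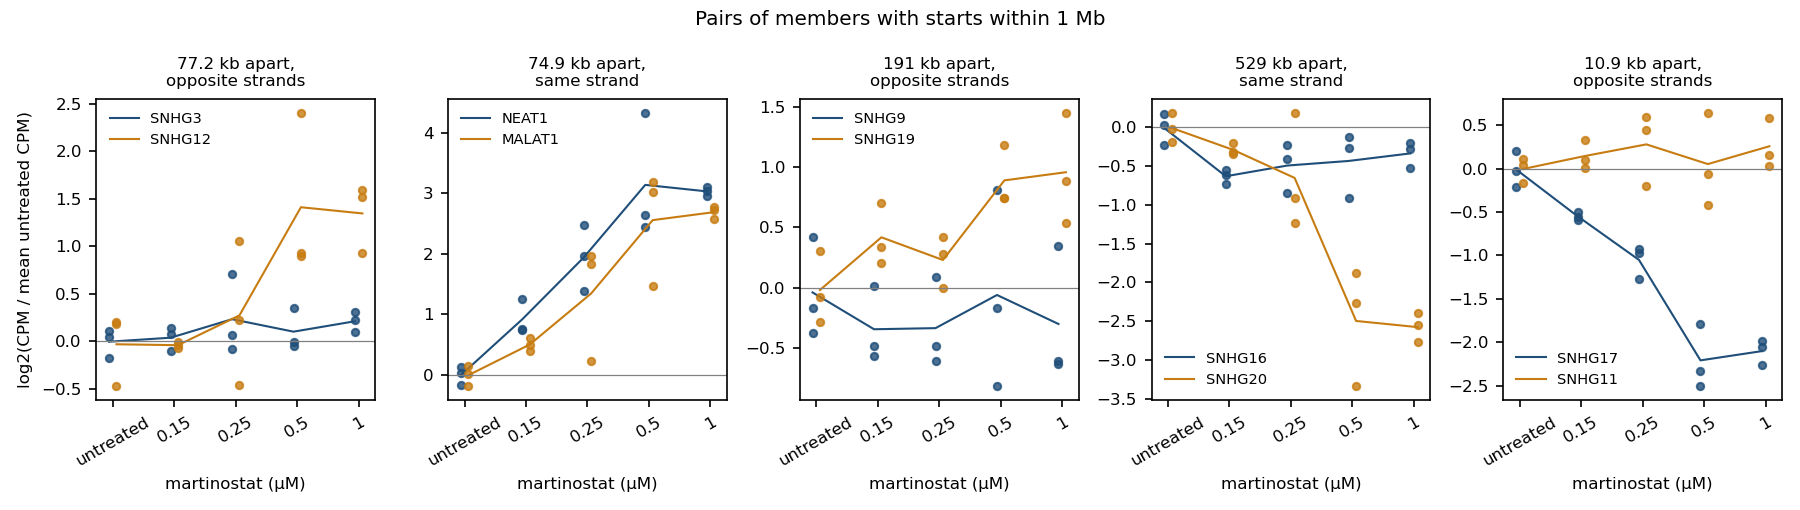
log2 of CPM over the mean untreated CPM (vertical axes) by martinostat dose in µM for the 5 pairs of lncRNA genes with starts within 1 Mb, with a point per library and a line through the group means of the log2 values. In 4 of the pairs, all but NEAT1 and MALAT1, 1 gene was called at 1 µM (SNHG12, SNHG19, SNHG20, SNHG17) and its neighbour was not.

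In 4 of the 5 pairs of chromosomal neighbours, 1 gene was called at 1 µM and the other was not. SNHG17 and SNHG11 start 10.9 kb apart on opposite strands of chromosome 20, and at 1 µM SNHG17 had a log2 fold change of -2.10 and SNHG11 of 0.28 ± 0.24 (adjusted p = 0.328). SNHG12 and SNHG3 start 77.2 kb apart on chromosome 1, with values of 1.37 and 0.21 ± 0.18 (adjusted p = 0.306). SNHG20 and SNHG16 start 529 kb apart on chromosome 17, with -2.57 and -0.33 ± 0.19 (adjusted p = 0.133), and SNHG19 and SNHG9 191 kb apart on chromosome 16, with 1.01 and -0.23 ± 0.37 (adjusted p = 0.609). The difference within a pair was not tested. GAS5, SNHG9 and their close opposite-strand partners ZBTB37 and RPS2 had values of -0.18, -0.23, 0.29 and 0.12 at 1 µM, none of them called.

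The snoRNAs themselves, which are short and carry no poly(A) tail, were hardly counted in these libraries. Of 145 snoRNA genes in the count table that lie inside these genes, 126 had 0 counts in all 15 libraries and 7 passed the filter. SNHG14 holds 84 of the 145 and GAS5 holds 0, so the 11 snoRNAs that RefSeq places in GAS5 are not covered. SNORD99 and SNORD104, the latter in SNHG25, were called higher at 0.5 and 1 µM, SNORA71B and SNORA74A lower at both, and SNORA73B in SNHG3, SNORA74D in SNHG4 and SNORD12C in ZFAS1 were not called at any dose. Of the 145, 86 have bases under an exon of the host, and 83 of these 86 had 0 counts, as had 43 of the 59 that have none. How the counting treats reads shared by 2 genes was not tested.

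Lists of related genes are read against all genes of at least 10 CPM, of which 48.4% were called lower at 1 µM with a median of -0.39, or 36.3% with a median of -0.03 when scaled by library totals. Genes for the snoRNA machinery were mostly called lower. All 4 proteins of the box C/D particle, which guides 2′-O-methylation, were called lower at 1 µM, from NOP56 (log2 fold change -2.07 ± 0.14) to SNU13 (-1.25 ± 0.18), with a median of -1.68. All 4 of the box H/ACA particle, which guides pseudouridylation, were lower too, from GAR1 (-2.83 ± 0.16) and DKC1 (-2.78 ± 0.16) to NOP10 (-1.27 ± 0.18), with a median of -2.15. All 8 of these genes were called lower with library totals as well. Of 13 assembly factors 10 were lower and 0 higher, or 7 and 0 with library totals, with NOLC1, a nucleolar chaperone, at -2.49 ± 0.15 and RUVBL2 at -0.08 ± 0.36 (adjusted p = 0.863). Of 30 protein-coding snoRNA hosts 19 were lower and 1 higher, or 15 and 2 with library totals, with WDR43 at -3.52 ± 0.16, GNL3 at -3.17 ± 0.15 and EIF4A2 at 0.80 ± 0.27 (adjusted p = 0.0160). Of 79 cytosolic ribosomal protein genes 33 (41.8%) were lower and 0 higher, with a median of -0.42, near the level of all genes of at least 10 CPM, and of 14 nonsense-mediated decay factors 10 were lower and 0 higher, or 6 and 3 with library totals, with SMG9 at -1.81 ± 0.15 and SMG6 at 0.31 ± 0.16 (adjusted p = 0.101).

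**Figure D4:**
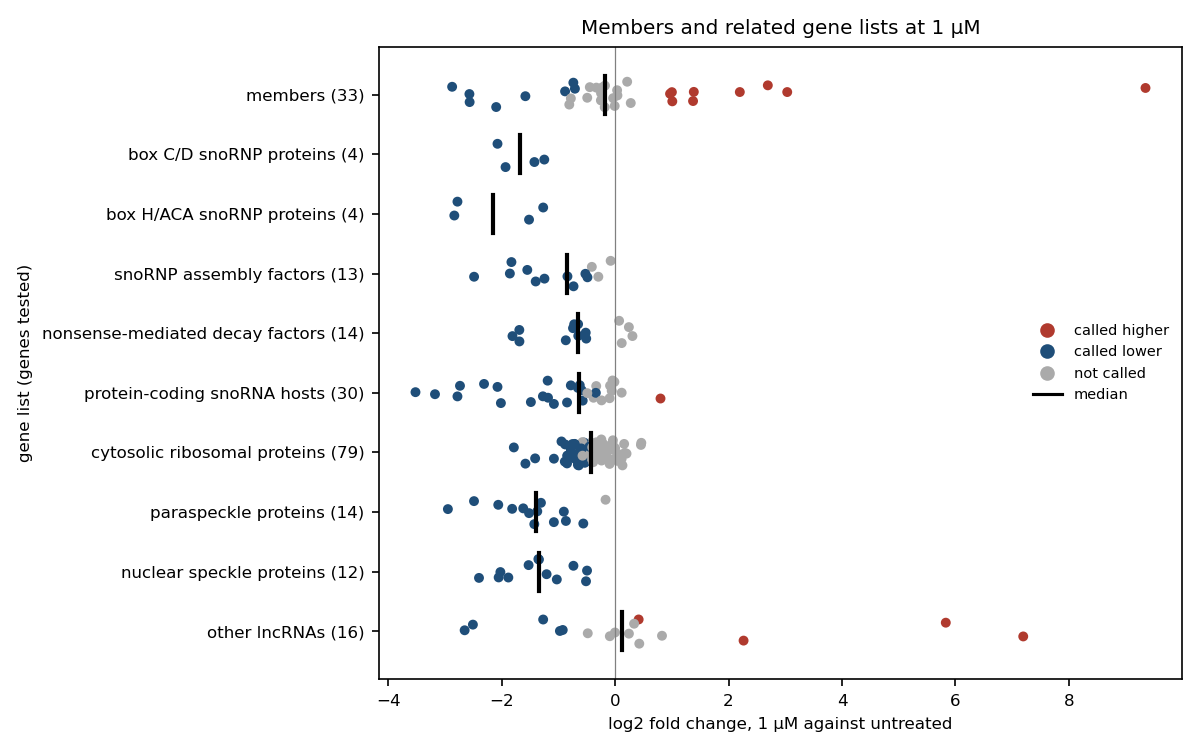
log2 fold change at 1 µM against untreated (horizontal axis) of the 33 tested lncRNA genes (top row, members) and of 9 lists of related genes, with a point per gene coloured by its call, a black bar at the median of each row and the number tested in brackets. All 4 box C/D, all 4 box H/ACA and all 12 nuclear speckle proteins were called lower; the values of SNHG18 (far right, top) and H19 are fitted against 0 counts and are not sizes of a fold.

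The genes for proteins that share compartments with NEAT1 and MALAT1 were mostly called lower, beside 48.4% of all genes of at least 10 CPM. Of 14 paraspeckle proteins 13 were called lower at 1 µM and 0 higher, with a median of -1.40, from HNRNPH3 (-2.95 ± 0.22) and DAZAP1 (-2.49 ± 0.15) to TAF15 (-0.56 ± 0.20), and the core paraspeckle protein NONO at -0.17 ± 0.14 (adjusted p = 0.289) was not called. All 12 nuclear speckle proteins were lower, with a median of -1.35, from SRSF1 (-2.40 ± 0.15) and SRSF3 (-2.05 ± 0.13) to SON (-0.51 ± 0.15) and THRAP3 (-0.49 ± 0.14). With library totals 12 of the 14 and 8 of the 12 were called lower. Of 18 other well-known lncRNAs 16 were tested, and 4 were higher and 5 lower (all tested genes 38.8% and 27.5%), with a median of 0.12. HCP5 and H19 are among the 4 and passed the filter only through treated libraries, so their calls are no support. MIR17HG, the host of the miR-17 cluster, went from 44.2 to 7.03 CPM (-2.65 ± 0.40) and CYTOR from 73.5 to 12.9 CPM (-2.51 ± 0.13), while HCP5 went from 0.0534 to 8.37 CPM and H19 from 0 to 0.245 CPM.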

How the data were processed

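Counts per gene were deposited for all 15 libraries in 1 table, and FPKM values in 1 table per library. From poly(A)-selected RNA (Lexogen) and directional libraries (NEBNext Ultra II), per the labels and methods, the authors trimmed reads with Trim Galore 0.6.10, aligned them to hg38 with HISAT2 2.2.1, sorted them with SAMtools 1.21 and counted them with featureCounts 1.5.3; the strand setting is not given in the sources used here. The deposited counts are raw, and the FPKM values that the authors derived were used only in alternatives.

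Gene symbols came from GENCODE and matched 60507 of 60649 identifiers. The counts were fitted with edgeR 4.0.16 (R 4.3.3): filterByExpr kept 23711 genes, library sizes were scaled by TMM, all 15 libraries entered 1 robust quasi-likelihood fit with the 5 groups as terms, and p-values were Benjamini-Hochberg adjusted over all genes tested, with 0.05 as the threshold. SE is the absolute log2 fold change divided by the square root of F. CPM uses TMM-scaled library sizes. Alternatives used DESeq2 1.42.0, limma 3.58.1 on log2 FPKM, other scalings and filters, and left-out libraries. Same-group libraries differed beyond counting error (chi-square at least 6.15 times its degrees of freedom), and the biological coefficient of variation was 0.228.

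Genes described in full were GAS5, ZFAS1, EPB41L4A-AS1, DANCR, MALAT1 and NEAT1, the 4 highest and 4 lowest log2 fold changes at 1 µM among genes of at least 10 CPM, and genes called in opposite directions at 0.15 and 1 µM, of which there were 0. Of each list the 2 highest and 2 lowest were named, and protein-coding genes that start within 1000 bases on the opposite strand. SNHG1, SNHG8, SNHG14, SNHG18, SNHG20, SNHG22, SNHG25, SNHG30, SNHG31 and the neighbours of a pair were named after their values were seen. The genes and lists were chosen with earlier results of these data known. Promoters (250 bases before to 50 after each start) are from RefSeq, GRCh38.p14; entries were not listed for NEAT1, SNHG6, SNHG9, SNHG15 and SNHG25. Some cell type markers are not reported here.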

Additional observations from a re-analysis of the deposited data

Results flagged for a closer look

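In 6 of the 33 genes the fitted change against untreated cells had opposite signs at 0.15 and 1 µM, and the levels at these doses differed in the quasi-likelihood test of edgeR (Benjamini-Hochberg adjusted). From 0.15 to 1 µM the log2 fold change was 1.42 for SNHG12 (adjusted p = 0.0154) and 0.50 for ZFAS1 (adjusted p = 0.0416). It was -2.63 for SNHG15 (adjusted p = 2.52e-07), -1.15 for SNHG26 (adjusted p = 0.0154), -1.02 for SNHG27 (adjusted p = 0.0420) and -0.77 for SNHG10 (adjusted p = 0.0323). None of the 6 was called in opposite directions against untreated cells. The share of all tested genes with this pattern is not given here, so the 6 cannot be read as particular to these genes.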

How the results depend on the processing

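Counts of the 33 genes called at each dose against untreated cells depended on scaling, filter, model and libraries left out. With library totals the calls were 6 higher against 2 lower at 0.15 µM and 11 against 1 at 0.25 µM, with 5 lower at 1 µM. With TMM restricted to genes averaging 10 CPM or more they were 5 against 2 at 0.15 µM, 11 against 3 at 0.25 µM, 13 higher at 0.5 µM, and 14 against 5 at 1 µM. With no filter 11 were lower at 0.5 µM and 5 higher at 1 µM. With at least 10 counts in every library 1 was higher and 4 lower at 0.15 µM, 6 were lower at 0.25 µM and 5 at 1 µM, fewer genes being tested. With only the 2 groups compared 5 were higher and 14 lower at 0.15 µM. By limma on log2(FPKM + 1) 1, 2 and 5 were lower at 0.15, 0.25 and 1 µM, and 12 differed among the groups; with a pseudocount of 0.1 these were 1, 1, 5 and 13; with no filter 1 was higher and 1 lower at 0.15 µM, 1, 4 and 4 were lower at the doses above, and 10 differed. Without the third libraries at 0.25 and 0.5 µM 4 were higher at 0.15 µM and 13 lower at 1 µM. For the step from 0.15 to 0.25 µM, 1 was called with RLE factors, with restricted TMM, with only the 2 groups compared and in all 3 limma fits, 0 with at least 10 counts in every library and 10 without the third libraries. For the step from 0.25 to 0.5 µM, 4 were called with only the 2 groups compared and 6, 6 and 5 by limma, which called 9 in each fit between 0.15 and 1 µM. Leaving out 1 library at a time gave 2 to 3 higher and 6 to 12 lower at 0.15 µM, 4 to 6 and 8 to 13 at 0.25 µM, 7 to 9 and 5 to 8 at 0.5 µM, 6 to 9 and 6 to 10 at 1 µM, 0 to 5, 6 to 12 and 0 to 0 for the successive steps, 9 to 16 between 0.15 and 1 µM, and 16 to 24 among the groups. With a replicate block the counts were 3 and 10, 6 and 13, 8 and 9, and 9 and 10 at the 4 doses. They were 3, 12 and 0 for the steps, 15 between 0.15 and 1 µM and 21 among the groups. The block applied the library numbers to all groups, although no label states that the numbers pair libraries. Every same-numbered correlation passed 0.1 in 1 of 10 group pairs (range over all -0.234 to 0.754), that of 0.25 and 0.5 µM (0.476, 0.500 and 0.754). Libraries of different numbers were not compared, and library 3 stood apart in several genes in both of these groups. These correlations therefore cannot decide whether the numbers pair the libraries, and the main fit treated all libraries as unpaired. The following log2 fold changes turned sign, in the order library totals, restricted TMM, at least 10 counts in every library, and limma with pseudocounts 1, 0.1 and 1 without filter. EPB41L4A-AS1 gave 0.17, 0.21, 0.0901, 0.13, 0.17 and 0.13 at 1 µM and 0.24, 0.29, 0.16, 0.20, 0.25 and 0.20 at 0.5 µM. GAS5 gave 0.17, 0.21, 0.10, 0.17, 0.18 and 0.17 at 1 µM, 0.28, 0.18, 0.0313, 0.24, 0.26 and 0.24 at 0.25 µM and 0.36, 0.40, 0.27, 0.33, 0.35 and 0.33 at 0.5 µM, there also 0.0506 by DESeq2, 0.0506 with RLE factors, 0.0387 with only the 2 groups and -0.143 to 0.0840 without 1 library at a time. SNHG12 at 0.15 µM gave 0.31, 0.22, 0.13, 0.25, 0.33 and 0.25, and -0.231 to 0.0684 without 1 library; at 0.25 µM it was -0.0570 without the third libraries and -0.0586 (without library 3 at 0.25 µM) to 0.697 without 1 library. SNHG15 at 0.25 µM gave 0.38, 0.27, 0.12, 0.30, 0.32 and 0.30, and -0.380 to 0.0249 without 1 library; at 0.15 µM the range without 1 library was -0.106 to 0.157. ZFAS1 ranged from -0.0354 to 0.264 at 0.5 µM and -0.0697 to 0.123 at 1 µM without 1 library. None of these had been called, and the cause was not tested. MALAT1, NEAT1 and DANCR kept their direction at all doses, and SNHG15, SNHG17, SNHG4 and SNHG20 at 0.5 and 1 µM, under the 4 scalings. Genes of few counts are limited by depth.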
